A study of Mus musculus with 9 samples.

Results

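The transient receptor potential (TRP) channels described here are 10 genes measured in mouse testis: the melastatin members Trpm2, Trpm4, Trpm5, Trpm6, Trpm7 and Trpm8, the vanilloid members Trpv2, Trpv4 and Trpv6, and the canonical member Trpc2. They were found as every probe set whose annotation gives exactly 1 of these genes, which came to 18 of the 45037 probe sets tested. Testes were collected from 24 week old C57BL/6J mice and were not treated. The 5 Tmem203 null samples carried a whole-body deletion in which the translation start of Tmem203 and part of its 5′ UTR had been replaced, with a short vector remnant holding a recombination site left in the allele. The 4 wild-type (WT) samples carried the intact gene. TMEM203 is a membrane protein of the endoplasmic reticulum, and the study asks about its part in calcium handling. The methods describe separate harvest of both testes of a mouse, and the labels do not say which animal gave each sample, so a p-value here measures the spread between these samples.

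Each array, of the Affymetrix mouse expression type, was hybridised with RNA of 1 sample, and on it a gene is read by 1 or more probe sets of short oligonucleotides. The values are log2 signals after Robust Multichip Average (RMA), in which background adjustment, quantile normalization and summary of each probe set had been done by the authors. A difference of 1 on this scale is a doubling of signal, and differences are given as Tmem203 null minus WT. Levels of different probe sets cannot be set against each other, because each binds its target with its own efficiency. Detection was set at a log2 signal of 5 or more on any of the arrays. Of the 18 TRP probe sets 16 were detected, 14 of them on all 9 arrays, and each of the 10 genes had at least 1.

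TRP channels are cation channels of the plasma membrane and of internal membranes, built from subunits that together surround a pore. Most let calcium and sodium into the cell, and they are opened by signals as different as temperature, lipids, nucleotides and calcium itself. TRPM4 and TRPM5 differ from their relatives in that they are opened by internal calcium and pass sodium and potassium but hardly any calcium, whereas TRPV6 is highly selective for calcium. In the testis, calcium signals accompany the maturation of germ cells, and in sperm they govern motility and the acrosome reaction.

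RNA of 3 of the 10 channels was lower in Tmem203 null testes: Trpm5 by 2.60-fold, Trpm8 by 1.64-fold and Trpv6 by 1.40-fold. At the same limma adjusted p under 0.05, 6.82% of all genes with a detected probe set were lower. No channel of the set was higher, against 8.03% of all genes. The study already names these 3 channels from the same arrays, and the Trpv6 call was lost when some single arrays were left out. The promoters of these 3 genes are shown because the study asks how TMEM203 acts on calcium-dependent transcription factors, NFAT and the coactivator of CREB among them. Each line holds the 250 bases before the annotated start of the gene, 5′ to 3′ on the strand of the gene, from RefSeq on GRCm38.p6. Trpm5 lies at chr7:143094643-143094892 on the minus strand, Trpm8 at chr1:88306485-88306734 on the plus strand and Trpv6 at chr6:41636406-41636655 on the minus strand. Capitals mark matches, on either strand, to the TATA box (TATAAA), the half-site of the cAMP response element (TGACG), the whole cAMP response element (TGACGTCA, which holds the half-site), the NFAT core (GGAAA) and the CCAAT box (CCAAT).
Trpm5: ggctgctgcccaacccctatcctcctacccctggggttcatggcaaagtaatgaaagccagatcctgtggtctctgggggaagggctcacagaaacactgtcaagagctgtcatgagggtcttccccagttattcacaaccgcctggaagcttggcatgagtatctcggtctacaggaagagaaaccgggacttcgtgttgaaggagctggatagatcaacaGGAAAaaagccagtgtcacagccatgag
Trpm8: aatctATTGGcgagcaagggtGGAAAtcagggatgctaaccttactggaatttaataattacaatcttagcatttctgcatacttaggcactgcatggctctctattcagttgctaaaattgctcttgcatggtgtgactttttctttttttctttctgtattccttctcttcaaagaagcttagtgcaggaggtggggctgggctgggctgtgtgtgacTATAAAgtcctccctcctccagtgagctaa
Trpv6: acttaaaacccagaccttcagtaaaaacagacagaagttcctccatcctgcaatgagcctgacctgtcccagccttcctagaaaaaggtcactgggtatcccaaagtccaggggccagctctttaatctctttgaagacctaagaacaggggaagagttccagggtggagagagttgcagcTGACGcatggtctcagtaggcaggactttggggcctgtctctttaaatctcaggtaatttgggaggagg
The Trpm5 window holds a single match, an NFAT core that begins at base -28 counted from the start. The Trpm8 window holds a TATA box at -30, an NFAT core at -229 and a CCAAT box at -245. The Trpv6 window holds a cAMP response element half-site at -69. No motif was shared by all 3 windows. Among 32851 mouse promoter windows of the same length, the NFAT core was found in 55.6%, the CCAAT box in 33.8%, the half-site in 17.8%, the TATA box in 12.4% and the whole cAMP response element in 1.55%. The GC content was 52.8% for Trpm5, 42.8% for Trpm8 and 49.6% for Trpv6, against a median of 52.4% over all windows. These matches describe the letters of the windows, and binding was not measured.

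Before the channels, the arrays and labels were checked. Tmem203 itself, read by 1 probe set, was 9.11 ± 0.03 in null testes (SD, n = 5) and 9.81 ± 0.13 in WT testes (SD, n = 4), a difference of -0.70 with a limma adjusted p of 2.87e-04. Whether this probe set lies in the replaced stretch is not given in the sources used here. Array medians lay between 6.96 and 7.05, and the correlation between arrays lay between 0.993 and 0.998, with WT replicate 3 reaching at most 0.996 with any other array. The 3′ minus 5′ signal of Gapdh, a sign of RNA integrity, was 0.85 ± 0.04 in null and 0.93 ± 0.01 in WT arrays (SD), with no overlap between the groups (exact two-sided permutation test over 9 arrays, p = 0.0159, the smallest this test can give). For Actb the same measure differed by -0.03 (exact permutation p = 0.365). The part of RNA quality in the channel results was not tested.

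Trpm5 encodes the calcium-activated monovalent cation channel that depolarises sweet, bitter and umami taste cells and tuft cells. Its probe set 1418783_at had log2 signals of 6.85, 6.84, 7.03, 6.38 and 6.88 in the Tmem203 null samples, against 8.30, 7.80, 8.09 and 8.50 in the WT samples. The highest null sample lay 0.78 below the lowest WT sample. The log2 fold change was -1.38 ± 0.15 (SE), with a 95% confidence interval of -1.72 to -1.03 and a limma adjusted p of 8.36e-04 over all probe sets tested. Among the 1104 genes that were lower in null testes, Trpm5 ranked 12 by the size of its fall.

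A second Trpm5 probe set gave the same direction. 1443413_s_at had log2 signals of 6.20, 6.48, 6.64, 6.32 and 6.24 in null samples, against 7.52, 7.26, 7.26 and 7.89 in WT samples. Again every null sample was below every WT sample, with a log2 fold change of -1.10 ± 0.14 (SE; limma adjusted p = 0.00160). The suffix marks a probe set that can match several transcripts. The difference between the log2 fold changes of the 2 probe sets was -0.27 (exact permutation p = 0.0952, adjusted p = 0.429 over 9 pairs of probe sets of the same gene). The remaining one, 1449224_at, stayed under the detection level on all 9 arrays, between 4.16 and 4.54 in null and between 4.17 and 4.77 in WT samples, and carries no reading of the gene.

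Trpm4 is the closest relative of Trpm5 and is likewise opened by internal calcium. Its probe set 1435549_at had log2 signals of 10.12, 10.28, 10.13, 9.97 and 10.12 in null samples, against 10.18, 10.23, 9.70 and 10.08 in WT samples. The groups overlapped, and WT replicate 3 was the lowest of the 9 arrays. The log2 fold change was 0.08 ± 0.11 (SE), with a 95% interval of -0.16 to 0.31 that lies within 1.5-fold in either direction (limma adjusted p = 0.717). Without WT replicate 3 the value was -0.04, so that Trpm4 has no settled direction. Trpm5 passed the test and Trpm4 did not, but the difference between their changes was not tested.

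Trpm8 encodes the cold and menthol receptor of sensory neurons, which also passes calcium. It was read by 1 probe set, 1421617_at, with log2 signals of 8.50, 8.71, 8.55, 8.52 and 8.34 in null samples, against 9.22, 9.14, 9.19 and 9.41 in WT samples. All 5 null samples lay below all 4 WT samples, with a gap of 0.43 between the groups, and within each group the SD was no more than 0.13. The log2 fold change was -0.71 ± 0.08 (SE), with a 95% interval of -0.89 to -0.53 and a limma adjusted p of 8.63e-04, and Trpm8 ranked 111 among the genes that were lower.

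Trpv6 encodes a calcium-selective channel of epithelia, which in mice serves calcium uptake in the gut and is needed in the epididymis for male fertility. Its single probe set 1419615_at had log2 signals of 6.23, 6.32, 6.25, 5.96 and 6.34 in null samples, against 6.91, 6.72, 6.77 and 6.43 in WT samples. The groups did not overlap, but null replicate 5 and WT replicate 4 were only 0.08 apart. Trpv6 differed by -0.48 ± 0.11 on the log2 scale (SE), with a 95% interval of -0.72 to -0.25 and a limma adjusted p of 0.0223, and it ranked 303 among the genes that were lower. The call was lost when null replicate 1 was left out (adjusted p = 0.0515), and likewise for WT replicate 1 (adjusted p = 0.0548) or WT replicate 2 (adjusted p = 0.0643), over a range of 0.00937 to 0.0643 with each array left out in turn by limma. The log2 fold change stayed below 0 in each of these fits.

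**Figure D1:**
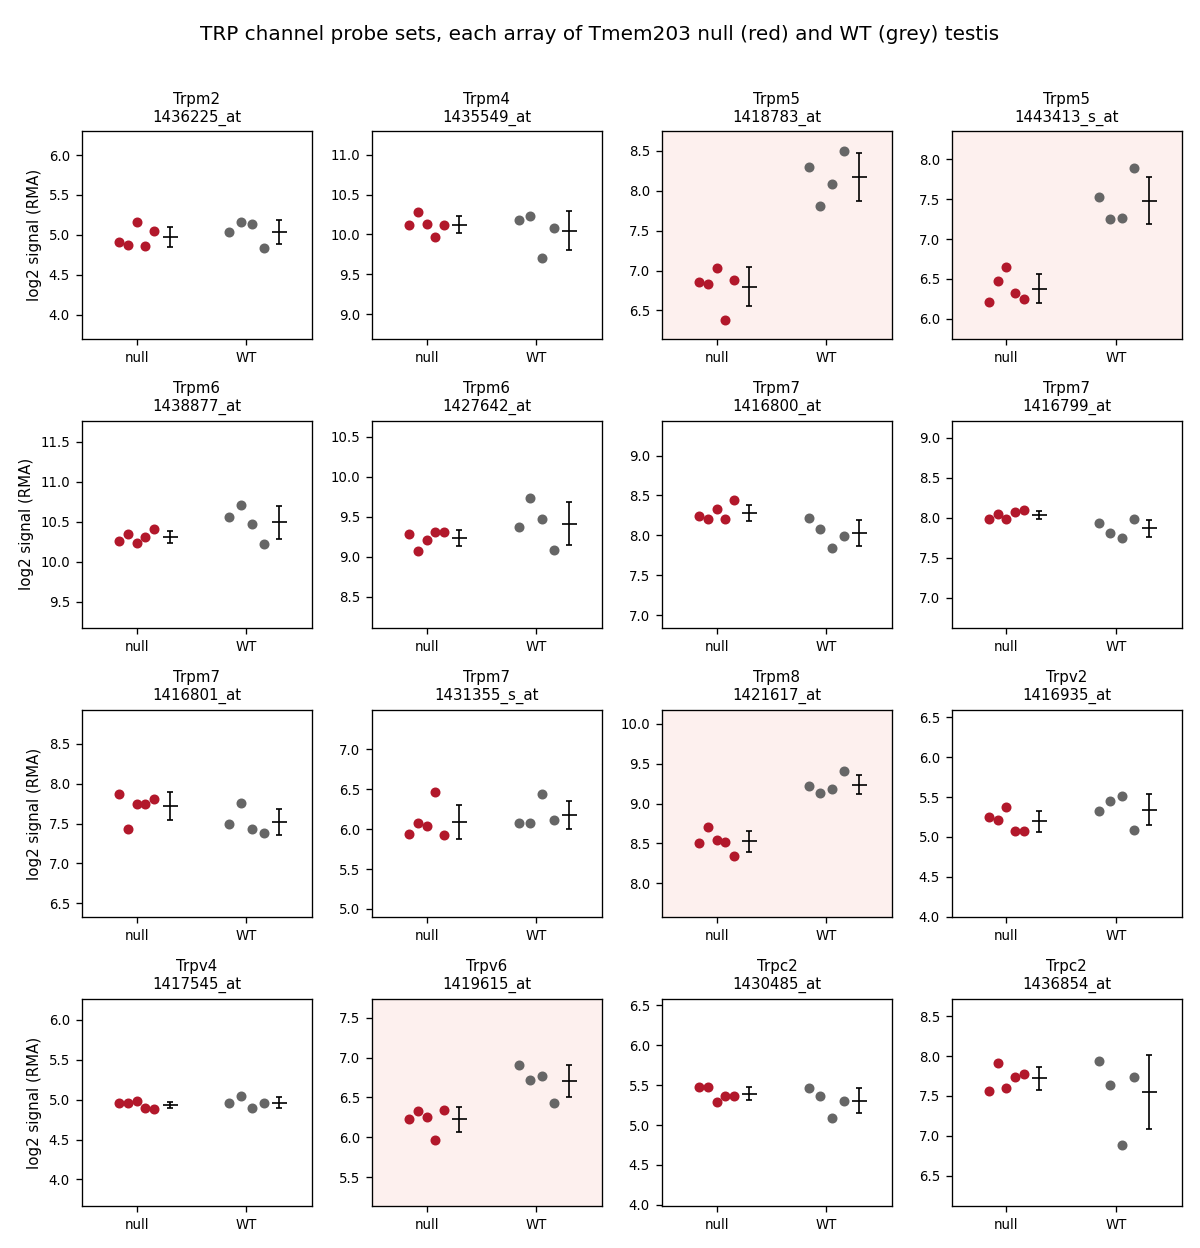
Log2 RMA signal of the 16 detected TRP probe sets on each array, with Tmem203 null samples (red, n = 5) left of WT samples (grey, n = 4), the mean and SD as black bars, and the same height of axis in every panel. In the 4 shaded panels, which have a limma adjusted p under 0.05, every null sample lies below every WT sample, by 0.78 for Trpm5 1418783_at and by 0.08 for Trpv6.

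The magnesium-permeable channels Trpm6 and Trpm7, each a channel joined to a protein kinase, were measured by several probe sets and none passed the test. TRPM6 serves magnesium uptake in kidney and gut, and TRPM7 is found in nearly all cells. Trpm7 was read by 4 detected probe sets. 1416800_at had log2 signals of 8.24, 8.21, 8.33, 8.21 and 8.44 in null samples, against 8.21, 8.08, 7.84 and 7.99 in WT samples. The groups overlapped narrowly, at 8.21. On this probe set the log2 fold change was 0.25 ± 0.08 (SE) with a 95% interval of 0.07 to 0.44, an unadjusted limma p of 0.0107 and an adjusted p of 0.0912. 1416799_at differed by 0.17 (limma adjusted p = 0.127) and 1416801_at by 0.20 (adjusted p = 0.267), whereas 1431355_s_at differed by -0.09 (adjusted p = 0.708).

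Trpm6 had log2 signals of 10.25, 10.35, 10.23, 10.30 and 10.41 in null samples, against 10.56, 10.71, 10.47 and 10.23 in WT samples on 1438877_at. Of the WT samples 3 lay above all null samples, and WT replicate 4 was level with the lowest null sample. Trpm6 thus differed by -0.18 ± 0.09 (SE; limma adjusted p = 0.256), and the second probe set, 1427642_at, gave -0.18 (adjusted p = 0.399) with a null range of 9.07 to 9.31 and a WT range of 9.08 to 9.74. Within the Trpm7 probe sets the log2 fold changes differed by up to 0.34, between 1416800_at and 1431355_s_at (exact permutation p = 0.159). With 9 such pairs over the 4 genes and a smallest possible exact p of 0.0159, a single differing pair could reach an adjusted p of only 0.143, so these tests say nothing of agreement between probe sets.

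Trpm2, Trpv2 and Trpv4 gave signals near the detection level. TRPM2 is opened by ADP-ribose and oxidative stress, TRPV4 by osmotic swelling and warmth, and TRPV2 by strong heat and stretch. Trpm2 reached the level on 5 of 9 arrays on 1436225_at, where null samples lay between 4.87 and 5.16 and WT samples between 4.83 and 5.16, and the log2 fold change was -0.07 (limma adjusted p = 0.686). Its second probe set, 1459482_at, was not detected on any array. Trpv4 reached the level on 1 array, WT replicate 2 at 5.05, and differed by -0.03 (adjusted p = 0.759). Trpv2 was above it on all arrays, between 5.07 and 5.38 in null and 5.08 and 5.52 in WT samples, and differed by -0.15 ± 0.10 (SE; adjusted p = 0.406). Near this level, log2 signals are compressed by background, so a change of these 3 RNAs could be larger than these values show.

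Trpc2 encodes the pheromone-sensing channel of the vomeronasal organ, and in mouse sperm it has been linked to calcium entry at the egg coat. Its probe set 1436854_at had log2 signals of 7.57, 7.92, 7.60, 7.74 and 7.78 in null samples, against 7.94, 7.63, 6.89 and 7.74 in WT samples. WT replicate 3 stood far below the other 8 arrays, and the log2 fold change was 0.17 ± 0.18 (SE), with the widest 95% interval of the detected TRP probe sets that did not pass, -0.23 to 0.57 (limma adjusted p = 0.613). The second, 1430485_at, from which the gene was read, gave 0.09 (adjusted p = 0.544). It lay near the detection level, between 5.28 and 5.48 in null and between 5.09 and 5.46 in WT samples. Without WT replicate 3 the gene was read through 1436854_at, at -0.05. A further 2 probe sets list Trpc2 together with a second gene and were left out: the one shared with Xndc1 differed by -0.22 ± 0.07 (SE; adjusted p = 0.0918) and the one shared with Xntrpc by 0.05 (adjusted p = 0.674).

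**Figure D2:**
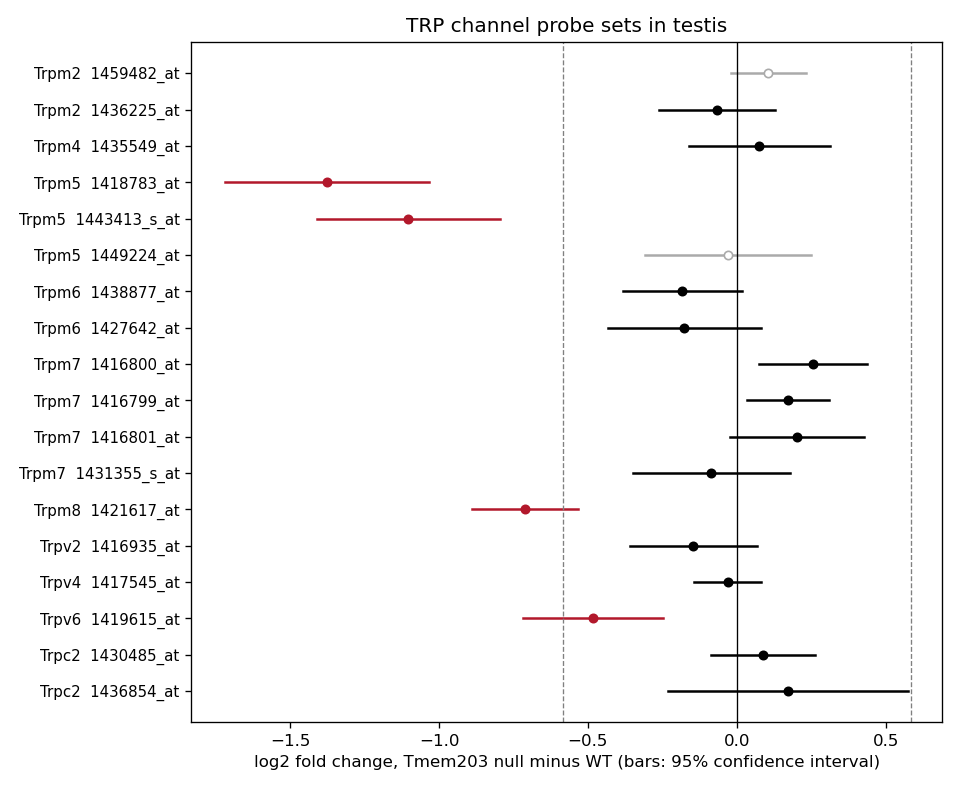
Log2 fold change (Tmem203 null minus WT, 5 against 4 arrays) of all 18 TRP probe sets with its 95% confidence interval from limma, in red where the adjusted p is under 0.05, in black where it is not, and as open grey circles for the 2 probe sets that were not detected. Dashed lines mark 1.5-fold in each direction, and the red intervals of Trpm5 lie wholly beyond the line on the left, while those of Trpm8 and Trpv6 cross it.

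Over the 10 channels together, 3 were lower at a limma adjusted p under 0.05, against 6.82% of the 16180 genes with a detected probe set, and 0 were higher, against 8.03%. At an unadjusted p under 0.05, 6 of the 16 detected probe sets passed, the 4 above and 2 of Trpm7, against 28.8% of all detected single-gene probe sets in either direction. With the thresholds of the study's methods, which also ask for at least 1.5-fold, Trpm5 and Trpm8 were called as lower, against 1.18% of genes. Because the study itself names Trpm5, Trpm8 and Trpv6 from these arrays, their fall is not independent evidence about the set. The paper also reports the reduction of these channels by quantitative PCR of reverse-transcribed RNA. Its methods state that the arrays and the PCR used the same RNA preparations. No PCR values were analysed here. Every null sample was below every WT sample on 4 of 16 detected probe sets, against 7.76% of detected single-gene probe sets, and above on 0 of 16, against 7.82%. The median log2 fold change of the 10 genes was -0.11, against -0.03 over all genes. For all 12 probe sets that did not pass, the 95% interval lay within 1.5-fold in both directions. For Trpm2, Trpv2, Trpv4 and Trpc2 1430485_at, which lay near the detection level, this bounds the change of the signal and not that of the RNA. WT replicate 3 was the lowest of the WT samples on 6 of 16 detected TRP probe sets and the lowest of all arrays on 5.

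Markers of the other cell types were read beside the channels, and in a bulk tissue fewer cells of a type and less RNA per cell cannot be told apart. Their counts stand against the 8.03% of all genes that were higher in null testes and the 6.82% that were lower. Counts and log2 fold changes come from the detected probe set of each marker with the smallest p. Mean levels are averages over the detected markers of a type, each at its probe set with the highest mean signal, which can differ. Of 8 Sertoli cell markers 5 were higher in null testes, with a mean log2 signal of 10.78 to 10.90 in null against 10.58 to 10.68 in WT samples. Of 4 detected Leydig cell markers 2 were higher (11.82 to 12.30 in null, 11.36 to 12.02 in WT), as were 2 of 6 macrophage markers (8.66 to 8.87 in null, 8.21 to 8.61 in WT). Of the germ cell markers, 1 of 6 for spermatogonia and 1 of 7 for spermatocytes were lower, and 0 of 6 for round and 0 of 8 for elongating spermatids passed, with medians of -0.06 and -0.00 for the spermatids. Mean levels of the spermatid markers were high, 13.20 to 13.26 (round) and 14.22 to 14.26 (elongating) in null samples. Whether such high signals still follow the amount of RNA was not tested. By flow cytometry and microscopy of older mice, the paper reports fewer condensed haploid cells and late spermatids in null testes. Of the tuft cell markers, in cells where Trpm5 is known to act, 0 of 5 passed. All 5 had a log2 fold change below 0, with a median of -0.13, where the median over all genes was also below 0, at -0.03. Their mean levels were 6.16 to 6.32 in null against 6.26 to 6.48 in WT samples. At an unadjusted limma p under 0.05, 2 of 5 passed, against 39.4% of all genes read in the same way. Picked from these markers after their values were seen, Dclk1 gave -0.58 with a 95% interval of -0.95 to -0.20 (limma unadjusted p = 0.00682, adjusted p = 0.0710) and Pou2f3 gave -0.19 (unadjusted p = 0.0274, adjusted p = 0.156). Whether these testes hold tuft cells was not tested. Of the epididymis markers, a tissue where Trpv6 is known to act, 0 of 5 passed, with a median of -0.09. Peritubular, endothelial and red blood cell markers gave 0 of 5, 0 of 5 and 0 of 2. The part of cell composition in the fall of Trpm5, Trpm8 and Trpv6 was not tested.

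The rest of the TRP family did not pass the test. Of 18 further family genes, 14 had a probe set of their own and 10 were detected, and 0 were higher and 0 lower at a limma adjusted p under 0.05, with 3 of 10 at an unadjusted p under 0.05, against 39.4% of all genes read in the same way. The median log2 fold change was -0.13 and the values ran from -0.24 for Trpc7 (adjusted p = 0.104) to 0.21 for Trpm3 (adjusted p = 0.200). Pkd2l2, a member of the polycystin branch, gave -0.20 (adjusted p = 0.0887). For all 10 the 95% interval lay within 1.5-fold in both directions. Mcoln3 (4.76 in null, 4.90 in WT) and Trpm3 (5.38 in null, 5.16 in WT) lay near the detection level, where this bounds the signal and not the RNA. Trpa1, Trpc5, Trpc6 and Trpm1 were not detected.

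Genes that work beside these channels were read in 4 further lists. In the taste cascade that opens TRPM5, from taste receptors through phospholipase C to the inositol trisphosphate receptor, 0 of 6 detected genes passed, with a median of -0.13. Itpr3, the receptor isoform of that cascade, gave 0.25 (limma adjusted p = 0.112). Among calcium and magnesium transport genes around Trpv6, Trpm6 and Trpm7, 1 of 12 was higher, a share near the 8.03% of all genes, and 0 were lower, with a median of 0.16. The single gene that rose was Slc41a2, a magnesium transporter, with log2 signals of 11.91, 11.86, 11.91, 11.91 and 12.04 in null samples, against 11.42, 11.24, 11.52 and 11.57 in WT samples. Its groups did not overlap, and the log2 fold change was 0.49 ± 0.07 (SE; limma adjusted p = 0.00341). Magt1, another magnesium transport gene, gave 0.40 (adjusted p = 0.0693). In the supply of ADP-ribose, which opens TRPM2, 0 of 4 detected genes passed (median -0.02). Of the 6 genes of that list, Cd38 had no single-gene probe set in the annotation used here, and Bst1 was not detected. Cd38 is among the genes that the paper lists as up-regulated in null testes. Among ion channels of the sperm plasma membrane, 0 of 9 detected genes passed (median -0.11).

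**Figure D3:**
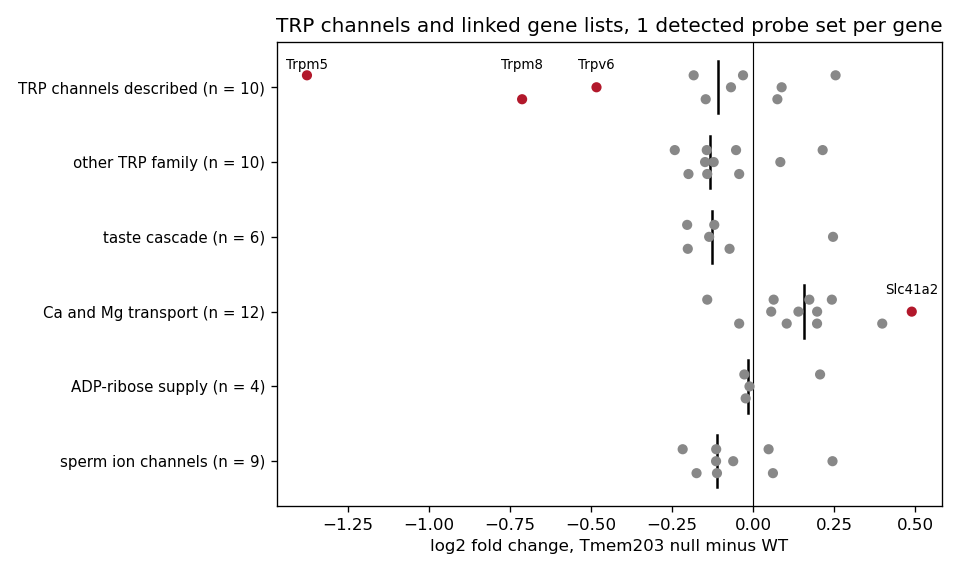
Log2 fold change (Tmem203 null minus WT) of each gene in the TRP set and in 5 linked lists, 1 point per gene read through its detected probe set with the smallest p, in red at a limma adjusted p under 0.05 and with the median of each list as a black line. Trpm5 (-1.38), Trpm8 (-0.71), Trpv6 (-0.48) and Slc41a2 (0.49) are the only red points, and the medians of the lists lie between -0.13 and 0.16.

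The genes whose pattern over the 9 arrays was most like each lower channel were named by the smallest root mean square difference of mean-centred log2 signals, as a description with no test. For Trpm5 these were Mlkl, Zim2, Calml4, Ifrd2 and Pcdh11x, with a difference of 0.181 for Mlkl, which itself fell by 1.25 on the log2 scale. Pcdh11x averaged 3.82 in null samples, under the detection level, and 5.05 in WT samples, so it entered this ranking through its WT signal. For Trpm8 they were Larp1b, Kansl1, Tnfrsf10b, Ghr and Traf1, with a difference of 0.0704 for Larp1b. For Trpv6 they were Sost, Dnah9, Dclk3, Sag and Slc25a12, with a difference of 0.0755 for Sost. Out of 16180 genes Trpm8 ranked 80 and Trpv6 ranked 279 in likeness to Trpm5. The ranks were not symmetric: in likeness to Trpm8, Trpv6 ranked 785 and Trpm5 ranked 9341, and in likeness to Trpv6, Trpm8 ranked 4232 and Trpm5 ranked 15515. All points share the same arrays, and a gene with a fall of the same size is close by this measure whatever its function.

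The 3 nearest genes on each side of each lower channel in the RefSeq gene order were then read, a choice made after the channel values were seen. Of 18 such genes 13 had a detected probe set of their own and 5 passed the limma test, 4 lower, against 6.82% of all genes, and 1 higher, against 8.03%. Beside Trpm5 these were Cdkn1c, an imprinted inhibitor of cyclin-dependent kinases, at -0.87 ± 0.08 (SE; adjusted p = 3.05e-04), Kcnq1, a potassium channel, at -0.41 (adjusted p = 0.0135), and the tetraspanin Cd81 at 0.31 (adjusted p = 0.0241). Between Trpm5 and Cd81, Tssc4 gave -0.16 (adjusted p = 0.209), and beyond Cdkn1c, Slc22a18 gave -0.18 (adjusted p = 0.139). Beside Trpm8 Glrp1 was lower at -0.42 (adjusted p = 0.0456), while Spp2 gave -0.35 (adjusted p = 0.119) and Mroh2a 0.03. Beside Trpv6 the Eph receptor Ephb6 was lower at -0.38 (adjusted p = 0.0329), while Prss2 gave -0.26 (adjusted p = 0.0979), Llcfc1 -0.05 and Kel 0.02. Neighbours of Trpm5 thus changed in both directions.

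The calls of Trpm5 and Trpm8 held with each of the 9 arrays left out. The adjusted p of Trpm5 lay between 0.00116 and 0.00388 and its log2 fold change between -1.50 and -0.97, where -0.97 came from the fit without WT replicate 4, in which the gene was read through 1443413_s_at. For Trpm8 the adjusted p lay between 0.00125 and 0.00364 and the log2 fold change between -0.76 and -0.66.

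**Figure D4:**
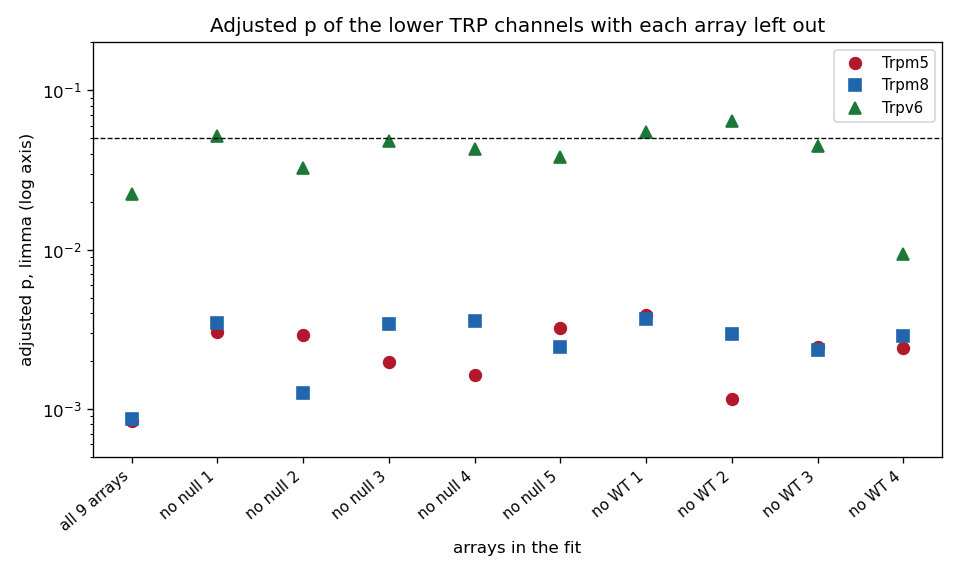
Limma adjusted p (log axis) of Trpm5, Trpm8 and Trpv6 with all 9 arrays and with each Tmem203 null or WT array left out in turn, where the dashed line is 0.05. Trpm5 and Trpm8 reach at most 0.00388 and 0.00364, and Trpv6 lies above the line in the fits that lack null replicate 1, lack WT replicate 1 or lack WT replicate 2.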

How the data were processed

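Testis RNA of 5 Tmem203 null and 4 WT samples had been hybridised to Affymetrix mouse expression arrays. What the authors deposited is a log2 signal for each probe set, made by RMA from scans that had passed their quality check. In the submitters' processing notes limma is named without a version. The genome build of the probes and the scan dates are not given in the sources used here, so batches could not be tested.

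From these values, null and WT were compared with limma 3.58.1 in R 4.3.3 (lmFit, eBayes) over 45037 probe sets, without 64 controls, with Benjamini-Hochberg adjustment over all of them. Detection required a log2 signal of 5 (a linear signal of 32) on 1 array. A gene was read through its detected single-gene probe set with the smallest p. Symbols came from the platform annotation, of which 34741 of 34945 single-gene entries matched the RefSeq table of GRCm38.p6. Of the 10 channels 9 had a promoter there. Changed probe sets were recovered in simulated data in 40 of 50 cases at 1.5-fold, 49 at 2-fold, 49 at 3-fold and 50 at 4-fold. The simulation had independent normal noise, no array effects and far fewer changed probe sets than were called here. These rates therefore check the fit and do not give its power in these data. Members and lists were chosen with earlier results of these data known. The text names every channel, list genes that passed, and the 5 genes most like each lower channel. Magt1, Itpr3, Dclk1, Pou2f3, Trpc7, Trpm3, Pkd2l2 and the neighbours were chosen after their values were seen. Drawing used Python 3.11.15. The number of arrays limits the precision.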

Additional observations from a re-analysis of the deposited data

Results flagged for a closer look

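Of 32 sets of arrays examined (the null and the WT arrays of 16 detected TRP probe sets), 4 held an array far from the rest by Dixon's criterion, which chance meets in about 1 in 20. On Trpm7 1416801_at null replicate 2 was the lowest null array at a log2 signal of 7.43, with the nearest at 7.75. On Trpm7 1431355_s_at null replicate 4 was high at 6.46, with the nearest null array at 6.07, and WT replicate 3 was high at 6.44, with the nearest WT array at 6.12. On Trpv6 1419615_at null replicate 4 was low at 5.96, with the nearest at 6.23, and without it Trpv6 stayed lower in null testes (log2 fold change -0.42, limma adjusted p = 0.0426).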

How the results depend on the processing

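Of 208 gene values recomputed under the alternatives (centring, further quantile normalization, variance model, array weights, adjustment over detected probe sets, probe sets open to cross-hybridization left out, choice of probe set, each array left out, an unpaired t-test), 202 kept their direction and their side of the threshold. The paper's methods name limma for the arrays and give the unpaired t-test in their general statistics. The count of channels lower at an adjusted p under 0.05 was 3 in most settings and 2 in those where Trpv6 lost its call. By the methods' thresholds only Trpm5, 1 channel, remained when at least 2-fold was asked for. Trpv6 lost its call in 4 settings: the 3 arrays named above and the unpaired t-test after Benjamini-Hochberg (adjusted p = 0.0708, unadjusted p = 0.00463). Without WT replicate 3, Trpm4 turned to -0.041 and Trpc2 to -0.048. With each array left out their ranges were -0.041 to 0.14 and -0.048 to 0.23. With all 9 arrays Trpc2 was read through 1430485_at, but both ends of its range were read through 1436854_at. The Trpc2 range thus mixes probe sets. On 1436854_at the value with all 9 arrays was 0.17. Why the sign turned for Trpm4 and on 1436854_at was not tested. Trpv4 was not detected without WT replicate 2. Pairing by replicate number was not seen: correlations of deviations lay between -0.0730 and 0.105 for the same number and between -0.145 and 0.203 for different numbers. So few pairs cannot exclude it. With the replicate number as a block, in which null replicate 5 has no partner and adds nothing, Trpm5 gave -1.40 (limma adjusted p = 0.0225), Trpm8 -0.67 (adjusted p = 0.0216) and Trpv6 -0.51 (adjusted p = 0.0263), with 3 channels lower as before. Among the linked lists, the transport genes past the threshold numbered 1 to 2 and the sperm ion channels 0 to 1, where Lrrc52 passed after median centring, with a trended and robust variance, without WT replicate 4 and by the unpaired t-test unadjusted.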
